A study of Homo sapiens with 2 samples.

Results

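Integrin chains known from the adhesion of myeloma cells were compared in MM.1S cells grown with plasmacytoid dendritic cells (pDCs) and in MM.1S cells grown alone. The chains were 10 listed genes of the 19775 genes on the array that a probe set with a single gene symbol could name: the alpha chains ITGA4, ITGA5, ITGA6, ITGAV, ITGAL and ITGAE and the beta chains ITGB1, ITGB7, ITGB2 and ITGB8. All 10 were found, on 27 probe sets, each of which is a group of short probes for a single transcript region. MM.1S is a human multiple myeloma line, a tumour of plasma cells, and pDCs are immune cells that release type I interferon when they sense viruses. Total RNA of each culture was hybridised to an Affymetrix HG-U133 Plus 2.0 array, 1 array for each of the 2 groups, so there was no replicate error for any value (n = 1 per group) and no test was possible. The labels give no culture time, cell ratio or source of the pDCs, and whether pDCs were removed before RNA was extracted was not analysed here. In RNA of a whole culture, fewer cells of a type and less RNA per cell cannot be told apart.

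Integrins are receptors made of an alpha and a beta chain, which leave the endoplasmic reticulum as a pair, so both chains are needed for a receptor at the surface. In the bone marrow, the ITGA4 and ITGB1 pair (VLA-4) holds myeloma cells to VCAM1 on stromal cells and to fibronectin, and the ITGA4 and ITGB7 pair binds MADCAM1, VCAM1 and fibronectin. ITGB7 is a known target of the transcription factor MAF, which a subset of myelomas overexpresses.

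The array median served as a floor for low signals, 115.9 in co-culture and 124.0 alone, and signals below it were set to it. A probe set below the floor on a single array therefore gives only a bound, written "at least", and one below it on both arrays gives no ratio. By this rule 9 of the 10 chains, each on its brightest probe set, had a ratio, and ITGB2 had none. ITGB8 passed only through its signal in co-culture. Ratios are log2 of co-culture minus alone, and a 2-fold difference was the threshold of size.

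ITGA4 and ITGB8 were higher in co-culture by more than 2-fold, and none of the 10 chains was 2-fold lower. ITGA4 was 3.49-fold higher and ITGB8 at least 4.12-fold higher. These were 2 of 9 chains above the floor, where 3.16% of all 14408 genes above the floor were at least 2-fold higher and 4.51% were at least 2-fold lower. The other 7 chains with a ratio lay between log2 -0.69 (ITGAE) and 0.56 (ITGA6). The median of the 9 log2 ratios was 0.15, against -0.04 over all genes, with 5 positive and 4 negative. Without ITGB8, which had to be positive, 4 were positive and 4 negative with a median of 0.04. Among probe sets, 4 of the 19 above the floor were at least 2-fold higher and 0 were 2-fold lower, where 4.19% and 4.67% of all such probe sets were. The 4 belonged to ITGA4 (1), ITGB1 (2) and ITGB8 (1). Of the 18 with a ratio, 3 were below the floor alone, this ITGB8 one among them, and could not count as lower. A further 1 was below it in co-culture and could not count as higher. Over all probe sets with a ratio, 2928 and 3230 were bounded in these ways.

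**Figure D1:**
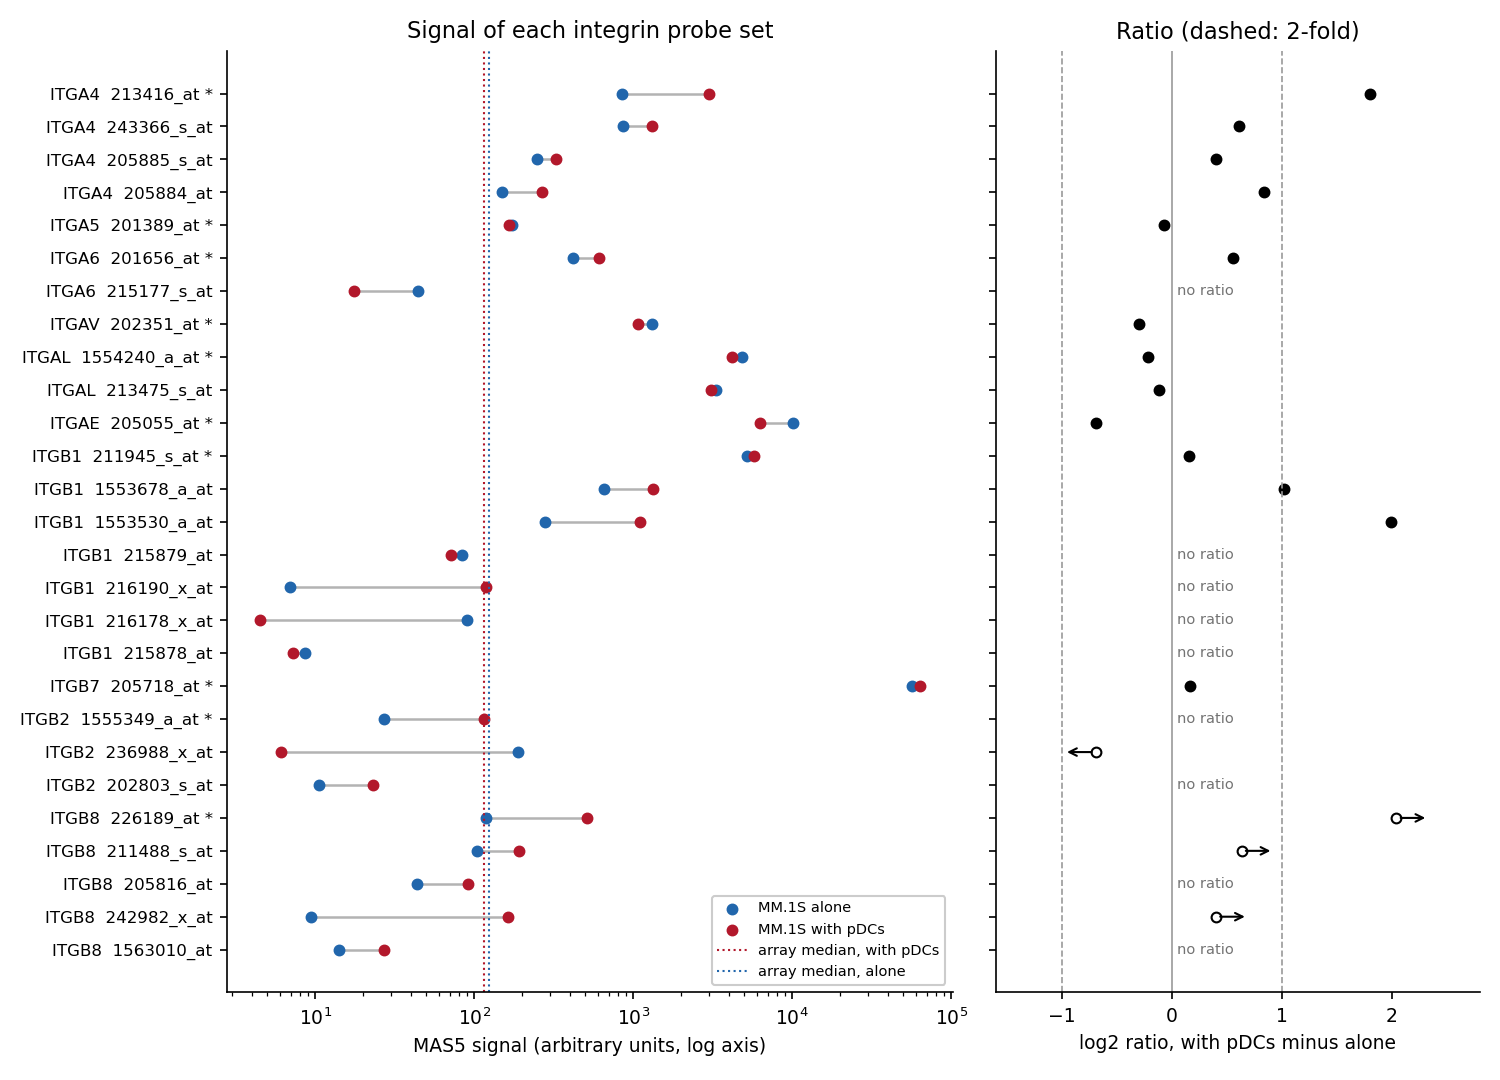
MAS5 signal (arbitrary units, log axis) of all 27 integrin probe sets on the co-culture array and the MM.1S-alone array, with the array medians as dotted lines, and the log2 ratio of each beside it. Asterisks mark the brightest probe set of a gene, and open circles with arrows are bounds. All 4 ITGA4 probe sets lie right of 0, while the brightest ITGB1 probe set lies at 0.15 and its next brightest at 1.02 and 1.99.

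Promoter windows of the 2 chains past 2-fold are shown because these are the members that were higher together. RefSeq windows of build GRCh38.p14, from 250 bases before to 50 bases after a transcript start, were found for 8 of the 10 chains. ITGA4 lies on chromosome 2 at 181457205 to 181538940, and its window covers chr2:181457136-181457435 on the plus strand. This window begins upstream of the gene's first base, but most of it lies inside the annotated gene, at a transcript start downstream of that base. ITGB8 lies on chromosome 7 at 20329766 to 20415754, and its window covers chr7:20330650-20330949 on the plus strand, inside the annotated gene, at a transcript start downstream of the gene's first base. Capitals mark matches on either strand to the searched letters, which were GGGCGG (GC box, bound by SP1), TGCTGA (a partial MAF recognition element), TGACTCA (AP-1), CAGGTG (an E-box bound by ZEB proteins) and TGTGGT (RUNX).
ITGA4: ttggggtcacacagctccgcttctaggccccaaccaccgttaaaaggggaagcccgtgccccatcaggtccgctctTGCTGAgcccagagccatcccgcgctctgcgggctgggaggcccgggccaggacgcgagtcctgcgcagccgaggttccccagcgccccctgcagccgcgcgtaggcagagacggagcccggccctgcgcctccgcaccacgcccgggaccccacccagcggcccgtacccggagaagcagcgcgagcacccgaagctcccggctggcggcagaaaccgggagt
ITGB8: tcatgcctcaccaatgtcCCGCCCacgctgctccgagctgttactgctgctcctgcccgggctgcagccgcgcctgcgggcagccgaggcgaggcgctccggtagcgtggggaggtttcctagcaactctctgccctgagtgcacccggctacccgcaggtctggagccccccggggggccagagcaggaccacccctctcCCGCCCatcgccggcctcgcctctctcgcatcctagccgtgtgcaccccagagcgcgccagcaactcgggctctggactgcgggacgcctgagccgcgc

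The ITGA4 window held 1 match, to the partial MAF element, and the ITGB8 window held 2, both to the GC box on the minus strand. The pair shared no match. Of all 35116 windows of this length, 17.3% held the partial MAF element letters and 45.0% the GC box letters, so such matches are common. The ITGB7 window, of the known MAF target, held 0 matches to any of the 5 motifs. AP-1 letters (4.95% of all windows) were found among the members in the ITGA5 window alone, and RUNX letters (13.1%) and the E-box (20.6%) in the windows of ITGA6 alone.

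ITGA4 encodes the alpha chain shared by VLA-4 and the ITGB7 receptor. Its brightest probe set, 213416_at, had a signal of 2979 in co-culture and 854 alone, a log2 ratio of 1.80. The next, 243366_s_at, had 1317 against 864 (0.61), and 205885_s_at had 329 against 249 (0.40). The last, 205884_at, had 267 against 149 (0.84). All 4 were above the floor on both arrays and higher in co-culture, but only 213416_at passed 2-fold. They spanned 1.40 in log2 ratio, against a median span of 0.94 over the 442 genes with 4 such probe sets. In 62 of those genes (14.0%) all 4 probe sets were positive. The direction of ITGA4 held under every scaling of the arrays, where its ratio lay between 1.78 and 1.81, and the mean over its probe sets gave a log2 ratio of 0.91, below 2-fold.

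ITGB1 encodes the beta chain that pairs with ITGA4, ITGA5, ITGA6 and ITGAV. Its brightest probe set, 211945_s_at, was nearly level at 5752 in co-culture and 5172 alone (log2 ratio 0.15). The probe set 1553678_a_at had 1334 against 659 (1.02), and 1553530_a_at had 1105 against 277 (1.99). All 3 were higher in co-culture, but they spanned 1.84 in log2 ratio, and 29 of the 1237 genes with 3 such probe sets (2.34%) spanned as much. After quantile normalization and after loess 1553678_a_at was just under 2-fold, at 0.991 and 0.995. The remaining 4 ITGB1 probe sets gave no ratio, with 3 below the floor on both arrays and 216190_x_at at 118 against 6.92, barely above the floor in co-culture. The ITGB1 call therefore turned on the probe set: with s_at and x_at probe sets left out, which can bind several transcripts, 1553678_a_at became the brightest and the gene was 2.02-fold higher.

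Control probe sets along 2 reference transcripts also differed between the arrays by position. For ACTB the log2 ratio was 0.28 at the 3' end, 1.25 in the middle and 1.55 at the 5' end, and for GAPDH it was 0.19, 0.36 and 0.51. Signals toward the 5' end were thus higher on the co-culture array, and for ACTB the 3' to 5' ratio was 19.5 alone against 8.09 with pDCs. Where along the integrin transcripts each probe set lies was not analysed here, so the part of this difference in the ITGA4, ITGB1 and ITGB8 ratios was not tested.

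ITGB7 encodes the beta chain of the ITGA4 and ITGAE receptors. Its single probe set, 205718_at, was among the brightest of both arrays, with 63492 in co-culture and 56548 alone, above 99.9% and 99.8% of all signals on their arrays. The log2 ratio was 0.17 and stayed positive under each scaling. MAF had a log2 ratio of -0.36 (11785 against 15126) on its brightest probe set, with -0.51 and -1.40 on 2 others. CCND2, a D-type cyclin that is also a MAF target, had -0.08 (33593 against 35523) on its brightest probe set. Its probe sets 200951_s_at and 200952_s_at had -0.81 and -0.43, and 231259_s_at, below the floor alone, had at least 0.03. Of the 6 genes listed for the MAF group, 4 were positive and 2 negative, against 47.2% and 52.8% of all genes with a ratio. DEPTOR, an inhibitor of mTOR that myelomas with MAF overexpress, was the only member of that list past 2-fold (2.68-fold higher, 7518 against 2801). Among all genes above the floor, 3.16% were at least 2-fold higher.

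ITGAE encodes the alpha chain CD103, known from T cells that reside in epithelia, where its pair with ITGB7 binds E-cadherin. Its single probe set, 205055_at, had a signal of 6301 in co-culture and 10174 alone, a log2 ratio of -0.69, the lowest of the 9 chains and short of 2-fold. The ratio lay between -0.69 and -0.67 under every scaling. The alternatives of floor and probe set choice could not alter it, since the single probe set was far above each floor. At a threshold of 1.5-fold ITGAE was the only chain counted as lower, where 15.3% of all genes above the floor were.

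ITGAL and ITGB2 form LFA-1, the leukocyte receptor for ICAM1, ICAM2 and ICAM3. ITGAL was bright on both arrays, with 4178 in co-culture against 4867 alone on 1554240_a_at (log2 ratio -0.22) and 3078 against 3334 on 213475_s_at (-0.12). The pair of probe sets differed by 0.10, less than the median span of 0.42 over 2947 genes with 2 such probe sets. ITGB2, the beta chain shared by the leukocyte integrins, was below the floor on both arrays except on 236988_x_at alone. Its brightest probe set, 1555349_a_at, had 115.0 in co-culture, just under the floor, and 27.1 alone. 202803_s_at had 23.1 against 10.5, and 236988_x_at had 6.04 against 187, a log2 ratio of -0.69 or lower. The 3 probe sets did not share a direction: 2 were brighter in co-culture, both below the floor, and 1 was brighter alone, where it exceeded the floor. With no floor, the brightest one gave a log2 ratio of 2.08.

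ITGA6 encodes the alpha chain of laminin receptors, and with ITGB1 it forms VLA-6. Its probe set 201656_at had 611 in co-culture against 416 alone, a log2 ratio of 0.56. The other, 215177_s_at, was below the floor on both arrays (17.6 against 44.4), and the mean over both turned the ratio to -0.23, a bound set by that dim probe set. ITGA5, the fibronectin receptor chain of VLA-5, had 164 against 172 on 201389_at (-0.07). That difference changed sign after quantile normalization (0.01), so ITGA5 had no settled direction. ITGAV, the alpha chain of receptors that bind vitronectin, fibronectin and latent TGF-beta, had 1068 against 1312 on 202351_at (-0.30). The sign of this ratio held under every scaling, and no other alternative could change it.

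ITGB8 encodes the beta chain that pairs with ITGAV to activate latent TGF-beta. Its brightest probe set, 226189_at, had 511 in co-culture and 119 alone, just below the floor there, and was at least 4.12-fold higher. 211488_s_at had 192 against 104 (log2 ratio at least 0.63) and 242982_x_at had 164 against 9.36 (at least 0.40). The dim 205816_at had 91.1 against 43.3 and 1563010_at had 27.1 against 14.0, both below the floor on both arrays. All 5 probe sets were brighter in co-culture, by 0.89 to 4.13 in log2 before the floor, and none was above the floor alone. With the floor at the 70th percentile of each array the bound dropped to at least 0.83, below 2-fold.

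**Figure D2:**
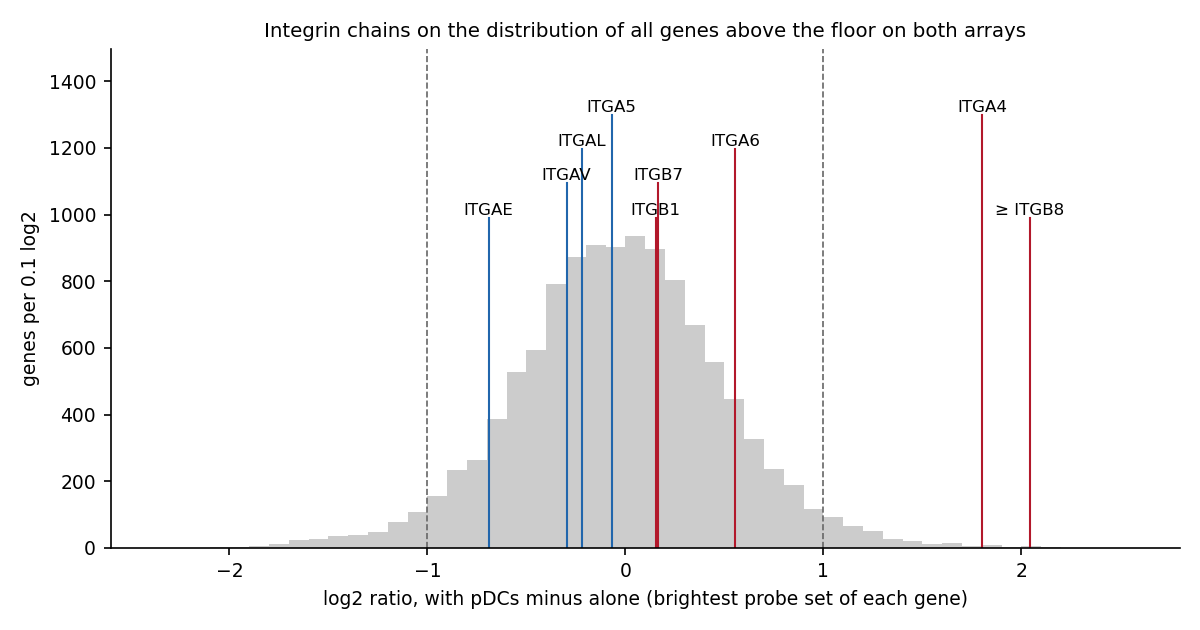
Number of genes per 0.1 log2 of ratio (bars) for genes that exceeded both floors, each on its brightest probe set, with the 9 integrin chains that had a ratio as lines. ITGA4 and ITGB8 (a lower bound) lie past the dashed 2-fold line at 1.80 and 2.04, and the other 7 lie within it.

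The chains were next read as 8 known pairs. Only ratios were set side by side, since signals of different probe sets do not show which chain is more abundant. On the brightest probe sets, both chains were positive in 3 pairs: ITGA4 with ITGB1, ITGA4 with ITGB7, and ITGA6 with ITGB1. They had opposite signs in 4 pairs, were both negative in 0, and the ITGAL and ITGB2 pair was not classified because ITGB2 had no ratio. In none of the 8 pairs were both chains past 2-fold on these probe sets.

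The higher ITGA4 signal was paired with beta chains that were nearly level on their brightest probe sets: it differed from ITGB1 by 1.65 in log2 ratio and from ITGB7 by 1.63. The pair of dimmer ITGB1 probe sets had 1.02 and 1.99, the 3 dimmer ITGA4 probe sets had 0.40 to 0.84, and 4 further ITGB1 probe sets had no ratio, so the gap depended on the probe sets compared. The opposite held for the TGF-beta activating pair, where ITGB8 was at least 4.12-fold higher and ITGAV had -0.30. For CD103 the alpha chain ITGAE had -0.69 and its only beta chain, ITGB7, had 0.17. The ITGA5 and ITGB1 pair (-0.07 and 0.15) had opposite signs, but became both positive after quantile normalization.

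**Figure D3:**
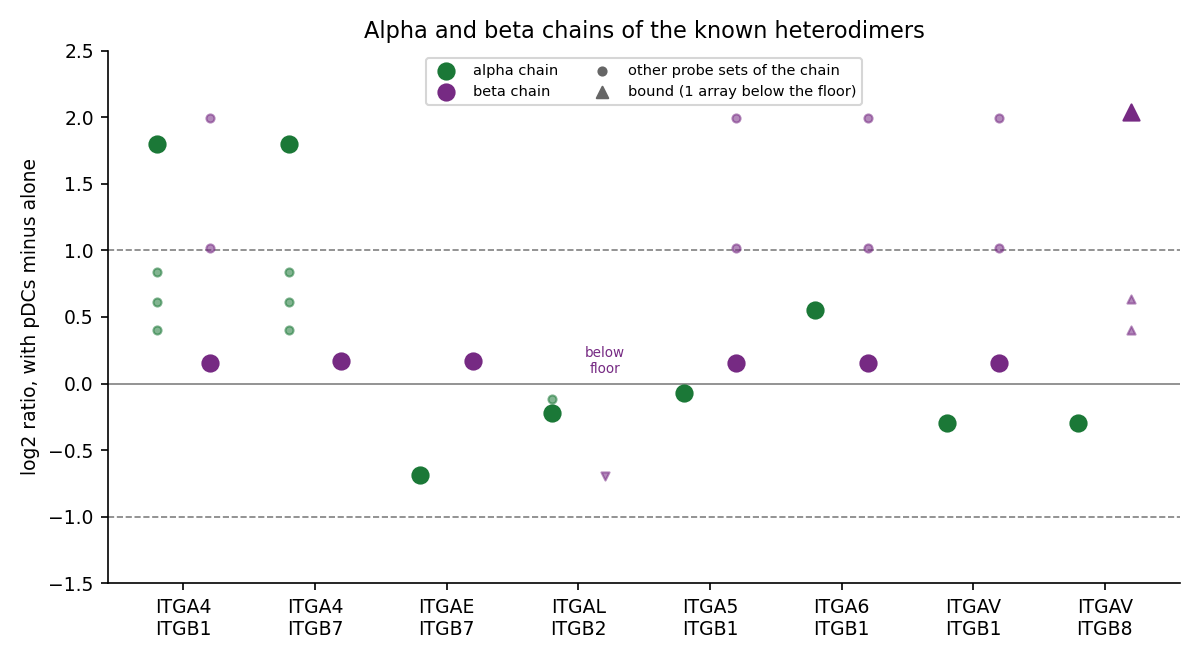
log2 ratio of the alpha chain (green) and the beta chain (purple) of 8 known integrin pairs, with large symbols for the brightest probe set, small symbols for other probe sets and triangles for bounds. Alpha and beta chains lie apart by 1.65 for ITGA4 with ITGB1, while 2 smaller ITGB1 symbols lie at 1.02 and 1.99.

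Of the other integrin chains, 15 of 16 were measured and 13 were above the floor. Their median log2 ratio was 0.44, with 9 positive and 4 negative, but 5 of the positive ones were below the floor alone and had to be higher. The other 8 were 4 positive and 4 negative, with a median of 0.01. ITGB5, another beta partner of ITGAV, was the only one of the 13 past 2-fold. It was 2.34-fold higher on 201125_s_at (2016 against 861) and had log2 ratios of 0.63 and 0.34 on 2 other probe sets. Of all genes above the floor, 3.16% were at least 2-fold higher and 4.51% at least 2-fold lower.

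Among ligands of these integrins, 3 of the 12 above the floor were at least 2-fold lower and 0 were 2-fold higher, where 4.51% and 3.16% of all genes were. Of 20 measured, 4 were positive and 8 negative, with a median of -0.33, where 52.8% of all ratios were negative. MADCAM1 and SPP1 were below the floor in co-culture and could only be negative, and EMILIN1, below it alone, could only be positive. The 9 ligands above it on both arrays were 3 positive and 6 negative, with a median of -0.23. MADCAM1, the gut addressin bound by the ITGA4 and ITGB7 receptor, was at least 3.45-fold lower (74.6 against 400.0). ICAM1, the LFA-1 ligand, was 2.15-fold lower (1325 against 2846), with log2 ratios of -0.43 and -1.05 on its other probe sets. THBS1, a matrix ligand, was lower by 2.34-fold on its brightest probe set (137 against 320), which was near the floor in co-culture. Only 2 of its 7 probe sets exceeded a floor. The other of these, 239336_at, had a log2 ratio of -0.16 or lower, and the rest gave no ratio. VCAM1 and the ITGAE ligand CDH1 were below the floor on both arrays. The positive ligands, besides EMILIN1, were FN1 (fibronectin), ICAM2 and ICAM3. On their brightest probe sets they had log2 ratios of 0.87 (1049 against 576), 0.46 and 0.24.

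Of 32 activation and adaptor genes measured, such as talin, kindlins and RAP1, 19 were positive and 12 negative, with a median of 0.21. Of the positive ones, 5 were below the floor alone and could only be positive, and without them the split was 14 to 12 with a median of 0.12. At least 2-fold higher were 1 of 31 adaptor genes, 0 of 9 membrane partners and 0 of 13 folding and traffic genes, and 0 were 2-fold lower, against 3.16% and 4.51% of all genes. PARVA, an actin-binding partner of integrin-linked kinase, was that adaptor gene (2.07-fold higher, 351 against 170 on 1563458_at), but the 3 others that exceeded the floor were negative. Of 10 membrane partners, 7 were positive (CD37 by a bound) and 2 negative (median 0.24), with CD9, a tetraspanin, at 0.95 (11690 against 6036) and CD63 at 0.31. On the dimmer 233322_at, CD9 had 0.06 (364 against 349). Of 13 measured folding and traffic genes, 9 were positive and 4 negative (NUMB by a bound; median 0.12). HSP90B1, the chaperone that integrins need to fold, had 0.05 on its brightest probe set and 0.59 on 216450_x_at. RAB5A, an endosomal GTPase, had -0.0010 on its brightest probe set and 0.71 on 206113_s_at. In the latent TGF-beta list, 4 were positive and 4 negative. Its member TGFB1 was at least 2.51-fold higher on 203085_s_at (312 against 117), with -0.29 or lower on the other probe set.

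**Figure D4:**
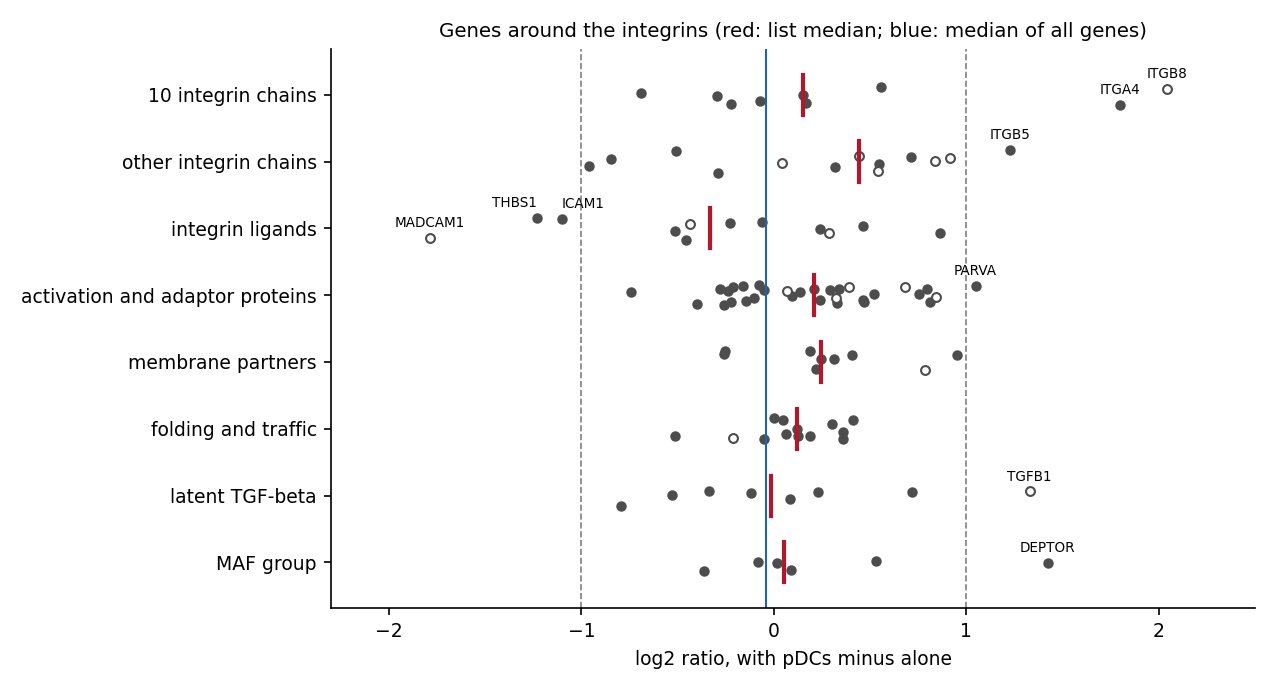
log2 ratio of each gene (brightest probe set) in 8 lists around the integrins, with bounds as open circles, the list median in red and the median of all genes (-0.04) in blue. Genes past the dashed 2-fold lines are named, and ligands are the only list with genes past 2-fold on the lower side.

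Plasma cell markers were bright on both arrays. Of 11 markers, all 11 exceeded the floor alone and 10 with pDCs, with SDC1 at 10177 against 10503 and IRF4 at 11634 against 11111. As ratios, 4 were positive and 7 negative, with a median of -0.47 against -0.04 over all genes. XBP1 had a log2 ratio of -0.48, CD38 -0.67 and JCHAIN 0.83. None of the 10 markers above the floor on both arrays passed 2-fold, and CD27, below it in co-culture (29.3 against 211), was at least 1.82-fold lower. The pDC markers CLEC4C and IL3RA were below the floor on both arrays, LILRA4 had 306 against 256 and NRP1 35.0 against 146. Over 15 measured pDC markers, 9 exceeded the floor with pDCs and 10 alone, as did 12913 and 13017 of all 19775 genes. As ratios, 4 of these markers were positive and 7 negative, against 47.2% and 52.8% of all genes with a ratio. Their summed signal was 26583 against 18180. LAMP5, bright on both arrays (19601 against 9053), made up this difference: without it the sums were 6982 and 9127. LAMP5 was 2.17-fold higher, while GZMB was 3.47-fold lower, PACSIN1 2.32-fold lower and TLR9 at least 2.24-fold lower. That made 1 of the 11 with a ratio higher and 3 lower, where 3.16% and 4.51% of all genes were. Of 12 T and NK cell markers, 8 were below the floor on both arrays, CD3D, CD3E and LCK among them, where 5367 of all 19775 genes were. Their sums were 828 and 1056, with CD5 at -0.34 and CD7 at -0.44 as the brightest of the 12. Monocyte markers summed to 511 with pDCs and 1571 alone, and without LYZ (17.0 against 711) to 494 and 860. Platelet markers summed to 315 and 1039, but PPBP (30.6 against 957) carried that difference: without it the sums were 285 and 82.1, with TUBB1 at 205 against 19.7 and PF4 at 33.0 against 12.7. Stromal, endothelial and epithelial markers summed to 2191 and 2372, with PECAM1 at 0.13 and COL1A1 at -0.41. ITGB2, which pDCs, T cells and monocytes express, was below the floor in co-culture on all 3 of its probe sets. The brightest was just under it, at 115.0 in co-culture against 27.1 alone. Whether RNA of other cells was present on either array was not tested.

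Transcripts next to 3 of the chains, named after their values were seen, were also measured. ITGB8-AS1, beside ITGB8, had 1044 in co-culture against 669 alone (log2 ratio 0.64). ITGB1-DT, beside ITGB1, had 197 against 101 (at least 0.67). ITGB2-AS1 had 0.88 on 229040_at and -0.38 or lower on 229041_s_at, so its probe sets disagreed.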

How the data were processed

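The authors deposited 1 linear intensity signal per probe set and array, which per the submitters' processing notes came from MAS5, with its version and settings not given in the sources used here. Both arrays share a scale, with a mean of 500.1 after trimming 2% at each end, so any shift shared by most transcripts is hidden. Of 54675 probe sets, 41091 had 1 symbol in the platform annotation, 1801 several, 11721 none and 62 were controls. No member shared a probe set with another symbol, and all 10 matched RefSeq (GRCh38.p14) by gene identifier. The brightest probe set (by mean log2 signal) stood for a gene, and all member probe sets are described. Promoter motifs were counted on both strands.

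The members, lists and motifs were chosen with earlier results of these data known. Named genes were all members with all their probe sets, and from each other list up to 6 genes past 2-fold or else the 2 brightest, plus a fixed set of pDC, plasma cell and MAF group genes. Alternatives were 3 scalings (median centring, quantile, loess with span 0.3), no floor or one at the 30th or 70th percentile, the mean over probe sets, no x_at and s_at probe sets, and thresholds of 1.5-fold and 3-fold. The number of arrays limits the precision. Calculations used Python 3.11.15, numpy 2.4.6, pandas 2.3.3 and statsmodels 0.14.6, and were tested on simulated data.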

Additional observations from a re-analysis of the deposited data

How the results depend on the processing

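No alternative changed the sign of ITGA4, ITGB8, ITGB1, ITGB7, ITGAL, ITGAV or ITGAE, and the 3 scalings left every count of chains and probe sets past 2-fold within 1.5 times. For ITGB7, ITGAV and ITGAE, each on a single bright probe set, only the scalings could have changed it. The probe sets of ITGA4 all shared a sign, as did those of ITGAL, and the brightest were far above each floor. For these chains too, the choice of floor or probe set could not change the sign. The floors could not change the sign of ITGB1 either, and its brightest probe set without x_at and s_at was also positive. ITGB8 had to be positive wherever it stayed below the floor alone, as under each scaling. The same held for ITGB1 in the mean over probe sets. The mean over probe sets moved most: chains at least 2-fold higher went from 2 to 0, the median of the members turned to -0.070, ITGA4 went to 0.91 and ITGB8 to 0.089. In that setting 3.75% of all genes were 2-fold higher. With the floor at the 70th percentile 1 of 8 chains was 2-fold higher (1.90% of all genes), and ITGB8 had 0.83. Without x_at and s_at probe sets ITGB1 had 1.02, and 3 of 9 chains were 2-fold higher (3.58% of all genes). With the floor at the 30th percentile and with no floor, 3 of 10 chains were 2-fold higher, ITGB2 among them. Of all genes, 8.57% and 12.0% were 2-fold higher in these settings. With the floor at the 30th percentile, 8 of 23 member probe sets were 2-fold higher and 2 lower (10.9% and 12.5% of all probe sets). With no floor, 9 of 27 were higher and 3 lower (15.4% and 16.8%). At 1.5-fold, 7 of 19 were higher and 2 lower (13.9% and 15.2%). At 1.5-fold 2 of 9 chains were higher and 1 lower (11.5% and 15.3% of all genes). No paired analysis was possible because each group has 1 array. Signals near the floor, as for ITGB2 and most ITGB8 probe sets, limit what these arrays can show.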
